A study of Mus musculus with 8 samples.

Results

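The 10 genes described here are markers of macrophages, the phagocytes of tissues: Adgre1, Cd68, Csf1r, Mrc1, Cd163, Lyz2, Cx3cr1, Ccr2, C1qa and Trem2. They were chosen by name from a table of 41709 mouse genes, and 9 of the 10 passed the filter on low levels (at least 1 TPM, a level scaled for transcript length and for the total of the library, in a minimum of 4 of 8 muscles), as did 11530 genes in all. Male C57BL/6J mice aged 3 months had siRNAs electroporated into the tibialis anterior (TA), a muscle of the lower leg, and RNA of 8 such muscles was sequenced 7 days later. In each of 4 mice the right TA muscle received control non-targeting (NT) siRNAs and the left TA muscle Uba1 siRNAs, each a SMARTpool of 4 siRNAs. There were thus 4 muscles a group (NT 1 to NT 4 and Uba1 1 to Uba1 4), and the muscles of 1 number are the contralateral legs of 1 mouse, called a mouse pair below. Since 1 siRNA always went to the same leg, siRNA and leg cannot be told apart, and no muscle without electroporation was analysed here. The whole muscle was homogenized, so that fewer macrophages and less of an mRNA per macrophage cannot be told apart. Titles and descriptions name UBA1 for all 4 left muscles, whereas the treatment tag of 3 of them names UBA2, UBA3 or UBA4.

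Uba1, which encodes the enzyme that activates ubiquitin at the start of its transfer to proteins, was at 60.6, 59.0, 63.6 and 59.1 TPM in NT 1 to NT 4 and at 18.1, 6.77, 15.8 and 23.1 TPM in Uba1 1 to Uba1 4. All 4 left muscles lay below all 4 right muscles, whatever gene their treatment tag names. The log2 fold change (log2FC) of Uba1 was -1.98 ± 0.29 (SE, n = 4 a group) on the log2(TPM + 1) scale, with an adjusted p of 0.0527 in limma and of 0.0278 once the mouse was a block. The libraries had the genes of skeletal muscle, which do not tell the TA from other fast muscles: the summed level of 6 muscle fiber genes lay between 81700 and 116000 TPM in every muscle. The steps of the TPM values gave back 19520000 to 21050000 whole reads (or read pairs) over the genes tested per muscle, and the worth of 1 read differed by at most 1.09-fold between muscles, so that the muscles were sequenced to like depth.

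Resident macrophages lie between muscle fibers in healthy muscle, and monocytes from blood, which carry the chemokine receptor CCR2, enter when fibers are injured and turn into macrophages there. CSF1R, bound by the cytokines CSF1 and IL34, keeps macrophages alive. CCR2 answers to the chemokines CCL2, CCL7, CCL8 and CCL12, and CX3CR1 to CX3CL1. In the myeloid lineage the transcription factor PU.1 (encoded by Spi1) binds sites with the core GAGGAA, and C/EBP factors bind sites close to TTGCNNAA. The 250 bases before the transcription start of 7 of the 10 markers were taken from RefSeq (build GRCm38.p6, whereas the expression values were made on GRCm39). They are shown for Ccr2 and Trem2, the markers that parted most from the others, and for Cd68 and Mrc1, which hold the most matches. Each is written 5′ to 3′ in the direction of its gene, with capitals for a PU.1 core or a C/EBP match on either strand.
Ccr2 (chr9:124101933-124102182, plus strand): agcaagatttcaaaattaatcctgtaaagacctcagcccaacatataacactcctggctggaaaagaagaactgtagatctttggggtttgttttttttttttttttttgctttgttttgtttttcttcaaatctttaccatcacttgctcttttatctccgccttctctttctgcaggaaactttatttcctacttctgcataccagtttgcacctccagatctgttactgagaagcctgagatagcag
Trem2 (chr17:48346151-48346400, plus strand): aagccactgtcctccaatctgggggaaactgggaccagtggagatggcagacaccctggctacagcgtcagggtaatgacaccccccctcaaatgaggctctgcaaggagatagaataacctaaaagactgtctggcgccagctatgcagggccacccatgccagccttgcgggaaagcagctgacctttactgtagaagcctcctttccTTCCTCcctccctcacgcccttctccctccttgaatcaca
Cd68 (chr11:69666171-69666420, minus strand): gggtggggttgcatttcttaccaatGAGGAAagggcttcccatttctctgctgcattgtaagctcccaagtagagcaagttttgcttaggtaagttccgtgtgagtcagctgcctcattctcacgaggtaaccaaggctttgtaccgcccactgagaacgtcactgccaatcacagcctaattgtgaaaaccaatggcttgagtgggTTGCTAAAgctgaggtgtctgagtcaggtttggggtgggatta
Mrc1 (chr2:14229164-14229413, plus strand): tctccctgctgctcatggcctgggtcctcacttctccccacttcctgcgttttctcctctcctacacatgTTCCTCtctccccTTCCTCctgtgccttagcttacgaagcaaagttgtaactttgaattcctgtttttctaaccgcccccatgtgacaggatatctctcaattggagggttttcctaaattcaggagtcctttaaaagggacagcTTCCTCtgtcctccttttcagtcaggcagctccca
Mrc1 held 3 PU.1 cores, which begin 180, 167 and 35 bases before the start, Cd68 held 1 at 225 and Trem2 1 at 40, all but that of Cd68 as TTCCTC on the strand shown. Cd68 also held 1 C/EBP match, 43 bases before the start, which overlaps none of the cores. Ccr2, Lyz2, Cd163 and Cx3cr1 held neither motif in this window. The PU.1 core was thus in 3 of 7 marker promoters, against 23.3% of 32851 promoters of the same length, and the C/EBP match in 1 of 7, against 9.56%. Such matches are letters in a window and describe no binding.

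The markers covered a wide span of levels. Lyz2, which encodes the lysozyme of macrophages, was at 171 ± 87.2 TPM (mean ± SD, n = 8 muscles), followed by C1qa, a chain of complement C1q made by resident macrophages, at 36.2 ± 18.9 TPM and the lysosomal glycoprotein gene Cd68 at 11.7 ± 5.32 TPM. Csf1r had 7.52 ± 3.18 TPM, the F4/80 antigen gene Adgre1 4.79 ± 2.44 TPM, the mannose receptor gene Mrc1 4.51 ± 1.95 TPM and Ccr2 2.25 ± 1.21 TPM. The lowest were the hemoglobin scavenger receptor gene Cd163 (1.31 ± 0.44 TPM), the lipid receptor gene Trem2 (0.948 ± 0.508 TPM) and Cx3cr1 (0.767 ± 0.431 TPM). The ranges over the 8 muscles did not overlap for Lyz2 and C1qa, and overlapped for every later pair of neighbors in this order. Adgre1 exceeded Mrc1 in only 4 of 8 muscles and Trem2 exceeded Cx3cr1 in 5 of 8, so these neighbors were not told apart. The recovered reads behind a value ranged from 1608 to 5796 for Lyz2, from 108 to 407 for Ccr2, from 17 to 120 for Trem2 and from 14 to 89 for Cx3cr1.

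**Figure D1:**
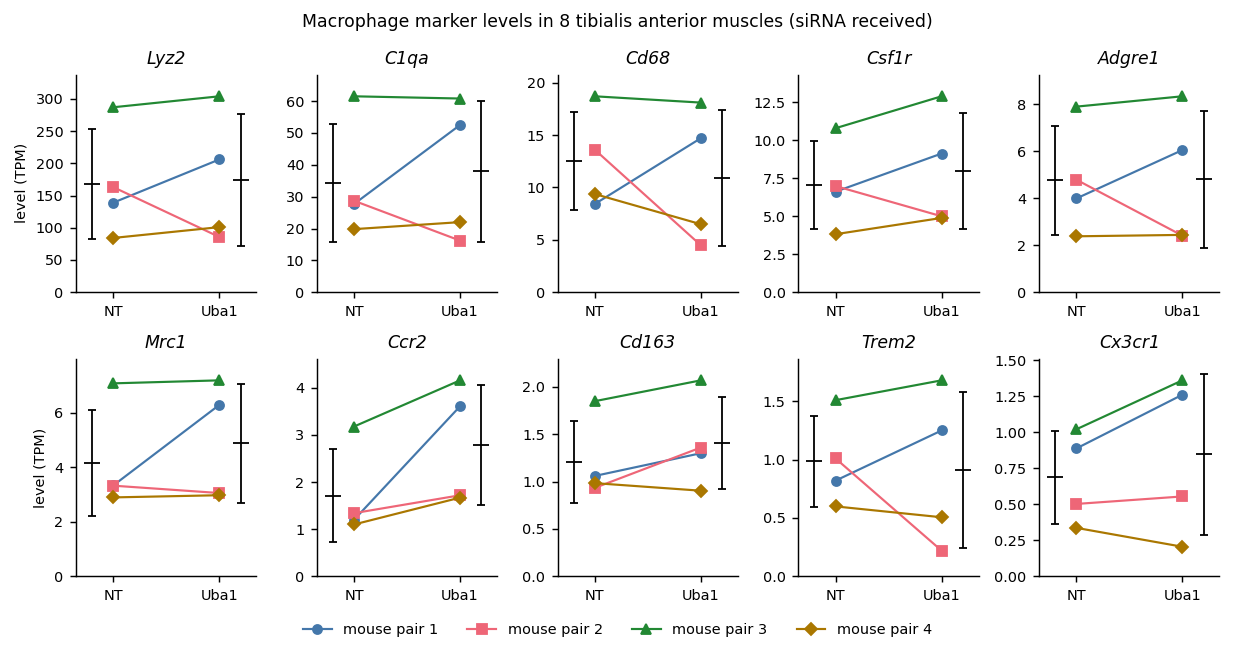
Level of each macrophage marker (y axis, TPM, from 0) in the muscle with NT siRNAs and the contralateral muscle with Uba1 siRNAs (x axis); lines join the 2 legs of a mouse, and black bars give the mean and SD of 4 muscles. The groups overlap in every panel, and both muscles of mouse pair 3 lie above the mean of their group.

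No macrophage marker passed the test for a change with Uba1 siRNAs. Of the 9 tested, 0 passed an adjusted p of 0.05 in limma without a block, against 0.026% of all genes tested. In that fit 0 had an unadjusted p under 0.05, against 18.0%. With the mouse as a block 0 passed as well, against 0.494% of all genes. Only Ccr2 then had an unadjusted limma p under 0.05 (0.0114). The share of all genes with such a p in the block fit was not counted. The log2FC lay above 0 for 6 of 9 markers, against 81.8% of all genes, and its median was 0.059, against 0.11 over all genes. The fit without a block could not resolve small changes in these genes: over the markers, the bounds of the 95% confidence interval (CI) lay a median of 0.74 log2 units from the log2FC. Larger changes could be missed too: Uba1, at -1.98 ± 0.29 (SE), had a limma adjusted p of 0.0527. The SE was 0.454 for Lyz2 and 0.457 for C1qa, though 0.17 for Cd163. With the mouse as a block the intervals of all 9 were narrower, such as -0.51 to 0.51 for Lyz2, against -1.02 to 1.02. Median-ratio scaling moved the median of all genes from 0.11 to 0.0016, and with it Lyz2 and C1qa moved below 0.

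Among the general markers, Adgre1 was at 3.99, 4.79, 7.90 and 2.38 TPM in NT 1 to NT 4 and at 6.05, 2.41, 8.34 and 2.44 TPM in Uba1 1 to Uba1 4. NT 3, Uba1 3 and Uba1 1 were high and the groups spanned nearly the same range, with a log2FC of -0.04 (95% CI -0.90 to 0.82, limma adjusted p = 0.955). Csf1r was at 6.62, 6.99, 10.8 and 3.82 TPM with NT siRNAs and at 9.13, 5.0, 12.9 and 4.89 TPM with Uba1 siRNAs. The same 3 muscles led, and the log2FC was 0.13 (95% CI -0.61 to 0.87, limma adjusted p = 0.838). Cd68 was at 8.42, 13.6, 18.7 and 9.37 TPM with NT siRNAs and at 14.7, 4.48, 18.1 and 6.49 TPM with Uba1 siRNAs. It was the only marker that was lower with Uba1 siRNAs in 3 of 4 mouse pairs, and its log2FC of -0.30 (95% CI -1.2 to 0.60, limma adjusted p = 0.688) became 0.017 without Uba1 2. Lyz2 was at 139, 163, 287 and 84.2 TPM with NT siRNAs and at 206, 85.7, 304 and 101 TPM with Uba1 siRNAs. Its group means of 168 ± 85.6 and 174 ± 102 TPM (SD, n = 4) were nearly equal beside their spread.

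Lyz1 (chr10:117123698-117128775) is the neighbor and paralog of Lyz2 (chr10:117111557-117118346, both on the minus strand of GRCm39). It shares 195 stretches of 50 bases of transcript with Lyz2, 14.3% of those in Lyz1 and 6.08% of those in Lyz2, so reads can be split between them. Lyz1 was at 1.91, 2.76, 5.56 and 1.53 TPM with NT siRNAs and at 3.33, 3.95, 7.44 and 3.91 TPM with Uba1 siRNAs. It was thus far below Lyz2, and it was higher in the left leg of 4 of 4 mice, with a log2FC of 0.57 (SE 0.305) that did not pass (limma adjusted p = 0.337).

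The markers of resident macrophages did not part the groups either. C1qa was at 27.7, 28.7, 61.5 and 19.8 TPM in NT 1 to NT 4 and at 52.5, 16.2, 60.8 and 22.0 TPM in Uba1 1 to Uba1 4. The left leg was higher in 2 mice and lower in 2, with a log2FC of 0.06 (95% CI -0.97 to 1.09, limma adjusted p = 0.948). Mrc1 was at 3.33, 3.32, 7.07 and 2.89 TPM with NT siRNAs and at 6.28, 3.05, 7.18 and 2.97 TPM with Uba1 siRNAs. NT 3 stood apart from the other NT muscles, and the log2FC was 0.18 (95% CI -0.50 to 0.85, limma adjusted p = 0.753). Cd163 was at 1.06, 0.934, 1.85 and 0.984 TPM with NT siRNAs and at 1.30, 1.36, 2.07 and 0.904 TPM with Uba1 siRNAs. It varied least of the markers tested, so that its log2FC of 0.13 had the narrowest interval (95% CI -0.26 to 0.51, limma adjusted p = 0.690).

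Trem2, which marks lipid-laden and phagocytic macrophages, was at 0.820, 1.01, 1.51 and 0.599 TPM with NT siRNAs and at 1.25, 0.220, 1.68 and 0.506 TPM with Uba1 siRNAs. The value of Uba1 2 rests on 17 reads (exact Poisson 95% interval 9.9 to 27.2, which covers counting error only), and the log2FC was -0.10 (95% CI -0.66 to 0.45, limma adjusted p = 0.83). Cx3cr1 was at 0.887, 0.502, 1.02 and 0.336 TPM with NT siRNAs and at 1.26, 0.554, 1.36 and 0.205 TPM with Uba1 siRNAs. Only 3 muscles reached 1 TPM, so Cx3cr1 was not in the filtered fit. Without the filter its log2FC was 0.10 (95% CI -0.44 to 0.64, limma adjusted p = 0.862), and a two-sided exact permutation test of the 8 muscles gave p = 0.686.

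Ccr2, the receptor of blood monocytes (chr9:123901982-123913594, plus strand, GENCODE annotation of GRCm39), showed the largest log2FC of the markers. It was at 1.2, 1.34, 3.18 and 1.1 TPM in NT 1 to NT 4 and at 3.61, 1.72, 4.16 and 1.67 TPM in Uba1 1 to Uba1 4. NT 3 lay within the range of the Uba1 group and the other NT muscles below it, and the means were 1.71 ± 0.99 and 2.79 ± 1.28 TPM (SD, n = 4). The log2FC of 0.48 (95% CI -0.15 to 1.12) did not pass in limma, with an adjusted p of 0.369. With the mouse as a block its 95% CI was 0.15 to 0.82. The limma p of that fit was 0.0114 unadjusted and 0.124 adjusted. In 4 of 4 mouse pairs Ccr2 was higher in the left leg, 3.01-, 1.29-, 1.31- and 1.52-fold, as the only one of the 10 markers, whereas 32.2% of all genes tested were higher in 4 of 4 pairs. No marker was lower in 4 of 4 pairs, against 2.98% of all genes. An exact sign-flip test of 4 pairs cannot go below p = 0.125, the value it gave for Ccr2. Over the 10 markers, 0 had groups that did not overlap in TPM, against 11.6% of all genes.

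**Figure D2:**
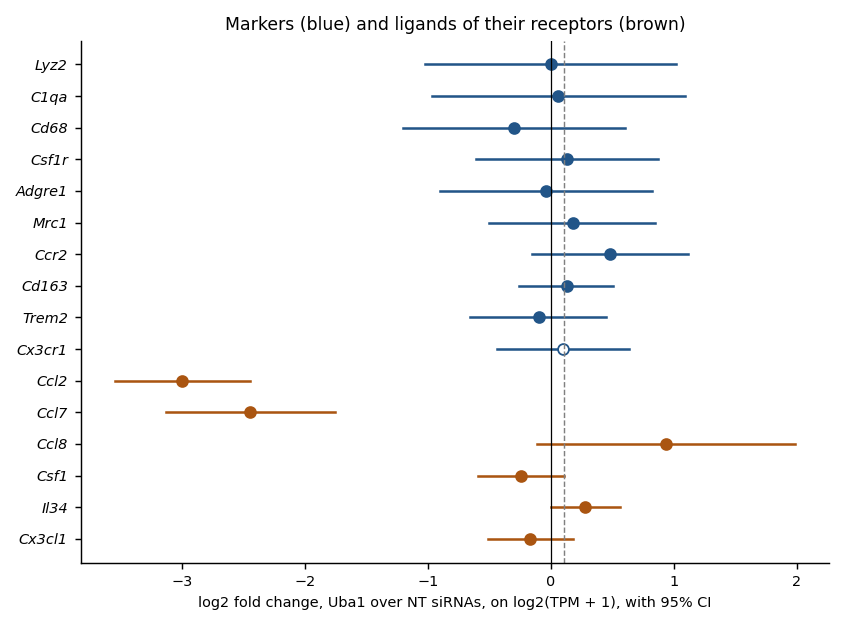
Log2 fold change of Uba1 over NT siRNAs on the log2(TPM + 1) scale (x axis) with its 95% CI for the 10 markers (blue) and 6 ligands of their receptors (brown), from limma over 8 muscles; the open circle of Cx3cr1 comes from the fit without a filter, and the dashed line is the median of all genes, 0.11. Every marker's interval covers 0 in this fit without a block, while those of Ccl2 and Ccl7 lie wholly below it and that of Il34 just above it. With the mouse as a block, which is not drawn, the interval of Ccr2 was 0.15 to 0.82.

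The markers varied widely between muscles of 1 group. The SD within groups of log2(TPM + 1) had a median of 0.57 over the 9 markers tested (0.27 to 0.80), against 0.14 over all genes tested, and it was above that median for 9 of 9. C1qa and Lyz2 varied more than 99.5% of all genes tested, and Cd163 more than 86.6%. Some other lists varied as widely or more. The summed level was 3.49-fold higher in the highest than in the lowest muscle for the markers and 3.36-fold for the other pan-macrophage genes. It was 3.8-fold higher for red blood cell markers and 10.3-fold for adipocyte markers. Other lists varied less, such as the other resident (1.68-fold) and lipid-associated (1.39-fold) macrophage genes, endothelial (1.38-fold) and muscle fiber markers (1.41-fold). The macrophage markers varied together. NT 3, Uba1 1 and Uba1 3 were the 3 highest muscles for 9 of 10 markers, and each of the 10 was highest in a muscle of mouse pair 3. The 10 markers summed to 193, 224, 400 and 125 TPM in NT 1 to NT 4 and to 303, 121, 421 and 143 TPM in Uba1 1 to Uba1 4. Over the 8 muscles, the Pearson r between 2 markers had a median of 0.90 (36 pairs of markers, 0.55 for Cd68 with Cd163 to 0.99 for Adgre1 with Lyz2). These values describe 8 muscles of only 4 mice, whose legs are not independent, and no p is given.

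The difference between the legs varied from mouse to mouse, with a median above 1-fold in 3 of 4 mice and below it in mouse pair 2. In mouse pair 1, 10 of 10 markers were higher in the leg with Uba1 siRNAs, with a median of 1.52-fold, from 1.23-fold for Cd163 to 3.01-fold for Ccr2. In mouse pair 2, 7 of 10 were lower and the median was 0.635-fold, from 0.219-fold for Trem2 to 1.45-fold for Cd163. Only Cd163, Ccr2 and Cx3cr1 were higher there. In mouse pair 3 the median was 1.08-fold, with 8 markers higher and 2 lower, and in mouse pair 4 it was 1.03-fold, with 6 higher and 4 lower. Of all genes tested, 83.3%, 56.1%, 81.8% and 61.8% were higher in the left leg of mouse pairs 1 to 4, so the counts in pairs 3 and 4 were close to those of all genes. The medians of the 4 pairs had an SD of 0.53 on the log2 scale. All genes tested had median log2 ratios of 0.22, 0.03, 0.18 and 0.05 in these pairs, so that they shifted in the direction of Uba1 siRNAs in every pair, which the markers did not.

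**Figure D3:**
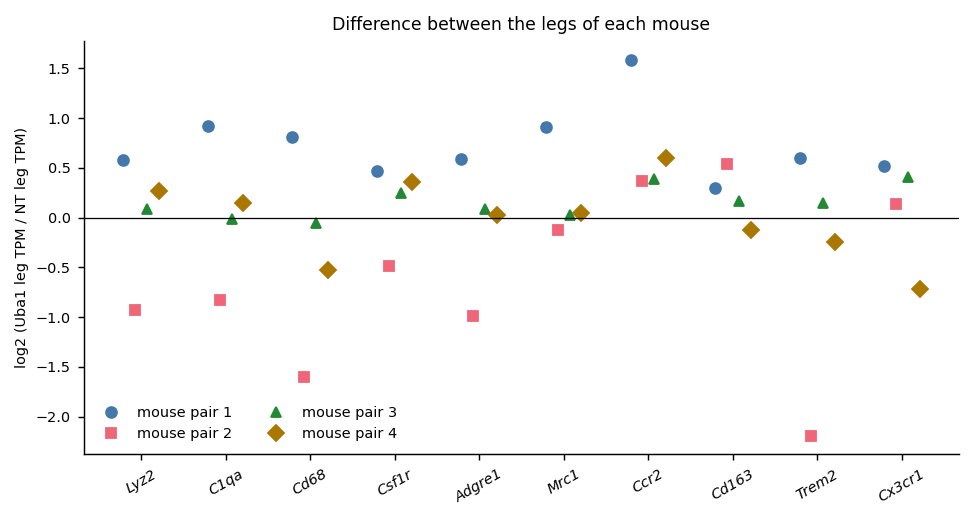
Log2 ratio of the TPM in the leg with Uba1 siRNAs to that in the leg with NT siRNAs (y axis) for each marker (x axis) and mouse pair (colors and symbols); 0 means equal legs. All points of mouse pair 1 lie above 0, 7 of 10 points of mouse pair 2 lie below it, and Ccr2 is the only marker with all 4 points above 0.

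Since the markers moved together, each was also set against the others in its own muscle, which cancels the scaling of the muscle. The log2 level of Ccr2 minus the mean log2 level of the 9 other markers was -2.08, -1.99, -1.56 and -1.67 in NT 1 to NT 4 and -1.12, -0.91, -1.30 and -0.98 in Uba1 1 to Uba1 4. All 4 Uba1 muscles lay above all 4 NT muscles, and the group means were -1.83 ± 0.25 and -1.08 ± 0.17 (SD, n = 4), a difference of 0.75. This difference stayed between 0.66 and 0.84 whichever muscle was left out, and between 0.70 and 0.78 whichever of the 9 other markers was left out of the mean. Relative to the markers, the groups of 0.269% of 11516 genes did not overlap (taken against the mean of all 10, which orders the muscles of a marker as the mean of the 9 others does). Most of those genes do not follow the markers from muscle to muscle, so a nearer yardstick is the other macrophage genes: over all the other macrophage lists, 4 of 63 genes had groups that did not overlap on this scale. They were the ligand genes Ccl2 and Ccl7, the cytokine gene Il6 and Gpnmb, a gene of lipid-associated macrophages whose difference was -0.73, while the 29 pan-macrophage and resident genes tested held 0. The measure was chosen after the values of Ccr2 were seen, and it is given as a description with no test.

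Marker by marker, Ccr2 had a higher ratio in every Uba1 muscle than in any NT muscle for 7 of 9 other markers. Against Mrc1, the marker closest to Ccr2 (r = 0.94), the ratio was 0.360, 0.402, 0.450 and 0.381 in NT 1 to NT 4 and 0.575, 0.564, 0.579 and 0.563 in Uba1 1 to Uba1 4. The ratio of Ccr2 to Lyz2, which has the most reads, was 0.00864, 0.00822, 0.0111 and 0.0131 with NT siRNAs and 0.0175, 0.0201, 0.0137 and 0.0165 with Uba1 siRNAs. The groups overlapped for the ratios to Cd163 and to Cx3cr1, in which Ccr2 was higher in 3 of 4 pairs. TPM are per length, so the size of a ratio compares levels of 2 genes, and its change between muscles does not depend on length.

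Trem2 was the other marker whose groups did not overlap relative to the rest, in the opposite direction and far less firmly. Its relative level was -2.69, -2.45, -2.75 and -2.65 with NT siRNAs and -2.83, -4.21, -2.76 and -2.90 with Uba1 siRNAs, so that NT 3 and Uba1 3 were nearly equal. The difference of -0.54 became -0.19 without Uba1 2, the muscle with 17 reads, and when each of the 9 other markers was left out of the mean in turn, the groups stayed apart in only 5 of 9 cases. The groups of the 8 other markers overlapped on this scale.

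**Figure D4:**
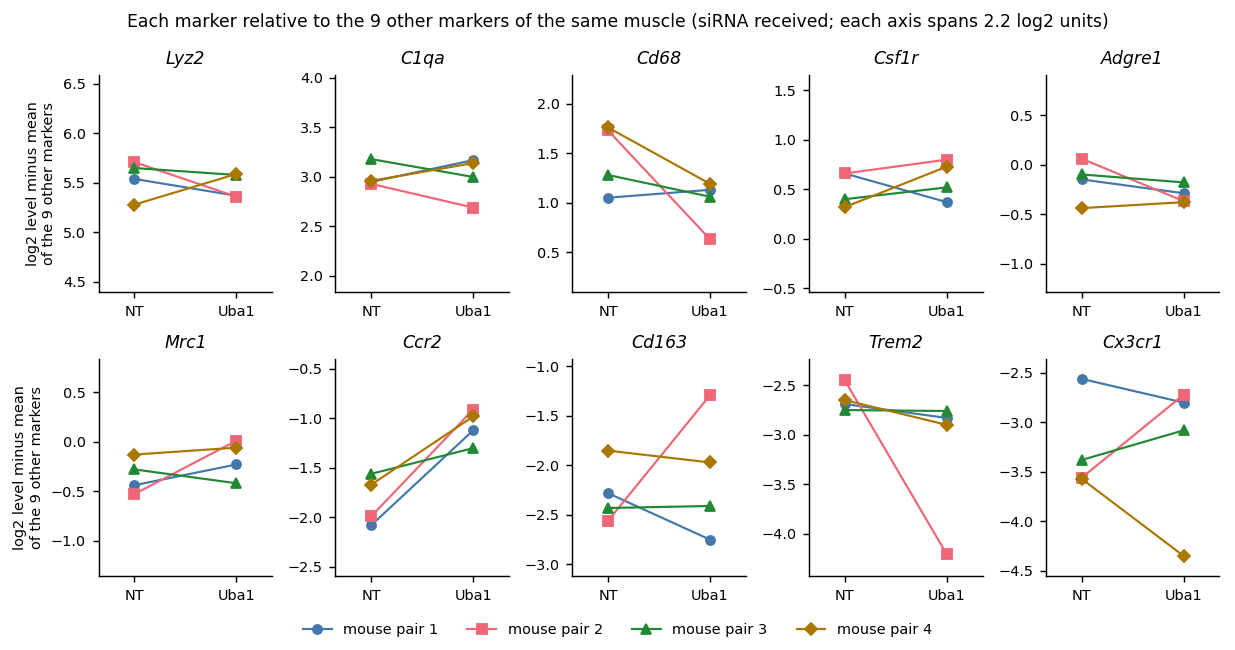
Log2 level of each marker minus the mean log2 level of the 9 other markers of the same muscle (y axis, each panel spanning 2.2 log2 units) with NT and Uba1 siRNAs (x axis); lines join the legs of a mouse. Ccr2 is higher in the left leg of all 4 mouse pairs and its groups do not overlap (difference 0.75), while the groups of the other markers, Trem2 apart, overlap.

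The ligands of the markers' receptors held the only call among the macrophage lists. Ccl2 fell from 28.0, 40.7, 38.1 and 34.6 TPM in NT 1 to NT 4 to 3.45, 1.80, 3.70 and 6.07 TPM in Uba1 1 to Uba1 4. The groups did not overlap, and the log2FC was -3.00 (95% CI -3.55 to -2.45, limma adjusted p = 0.00429). Ccl7 was at 17.1, 32.6, 37.4 and 23.7 TPM with NT siRNAs and at 4.99, 2.24, 3.28 and 6.90 TPM with Uba1 siRNAs. Its log2FC of -2.45 narrowly missed the threshold (limma adjusted p = 0.0515) and passed it with the mouse as a block (adjusted p = 0.0359), a fit that called 0.494% of all genes. The 2 other CCR2 ligands were not called. Ccl8 was at 0.744, 1.90, 7.72 and 0.944 TPM with NT siRNAs and at 5.57, 3.5, 7.44 and 3.61 TPM with Uba1 siRNAs. It was low in 3 NT muscles and as high in NT 3 as in the highest Uba1 muscle, with a log2FC of 0.94 (SE 0.466, limma adjusted p = 0.317) on 6 to 59 reads. Ccl12, below the filter, was at 0.236, 0.601, 1.74 and 0.513 TPM with NT siRNAs and at 0.505, 0.595, 4.50 and 0.490 TPM with Uba1 siRNAs, on 2 to 35 reads.

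The muscles with the least Ccl2 were thus not those with the least Ccr2. Uba1 2 had the lowest Ccl2 of all muscles, 1.80 TPM, at a Ccr2 of 1.72 TPM, above that of 3 NT muscles. The ligands of the other receptors did not pass the test. Csf1 had a mean of 6.98 ± 1.1 TPM with NT and 5.82 ± 1.36 TPM with Uba1 siRNAs (SD, n = 4) and was lower in 4 of 4 pairs (log2FC -0.24, limma adjusted p = 0.414). Il34 had 3.70 ± 0.348 and 4.77 ± 1.01 TPM and was higher in 4 of 4 pairs (log2FC 0.28, limma adjusted p = 0.276). Cx3cl1, the ligand of CX3CR1, had 2.67 ± 0.695 and 2.26 ± 0.508 TPM. Csf2, whose receptor is not among the markers, was below the filter, from 0 to 0.173 TPM.

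Of the other macrophage lists, no gene passed the limma fit. Among 18 further pan-macrophage genes 15 were tested, 9 had a log2FC above 0, and the median was 0.046, from -0.27 for the protease gene Ctss and -0.21 for the complement receptor gene C5ar1 to 0.20 for the integrin gene Itgam and 0.24 for Aif1. Of 14 resident genes tested 10 were above 0, with a median of 0.14. Among them were Ccl24 at -0.14, Pf4 at -0.05 and the lectin gene Mgl2 at 0.27. Of 10 genes of recruited monocytes 5 were tested, with a median of -0.32, from -1.0 for Hp and -0.53 for Thbs1 to 0.04 for Plac8 and 0.19 for Fn1, and Fcnb was at 0 in every muscle. The list's summed level was higher in the left leg of 1 of 4 mice.

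The 11 genes of lipid-associated macrophages, the state that Trem2 marks, had a median log2FC of 0.054, and 6 were above 0. Gpnmb, a lysosomal glycoprotein gene of that state, was at 4.14, 7.90, 6.75 and 2.56 TPM with NT siRNAs and at 4.13, 1.53, 6.33 and 2.19 TPM with Uba1 siRNAs. It was nearly equal in mouse pair 1 and lower in the left leg of the other mice (log2FC -0.51, limma adjusted p = 0.456). Spp1, which encodes osteopontin, was at 6.08, 6.35, 8.07 and 3.97 TPM with NT siRNAs and at 7.69, 23.6, 9.14 and 8.63 TPM with Uba1 siRNAs. It was higher in 4 of 4 pairs (log2FC 0.79, limma adjusted p = 0.246). Lgals3 had a log2FC of -0.39, and Lpl, which fat and muscle cells also express, one of 0.46.

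Of 16 macrophage activation genes 12 were tested, 8 had a log2FC below 0 and the median was -0.44. An unadjusted p under 0.05 was reached by 4 of these 12, each lower, against 18.0% of all genes in either direction, by 2 of 14 resident and 2 of 11 lipid-associated genes, each higher, by 1 of 5 recruited monocyte genes, lower, and by 3 of 6 ligands, of which 2 were lower and 1 higher. Il6, a cytokine that muscle fibers also make, was at 2.06, 5.72, 5.2 and 3.94 TPM with NT siRNAs and at 0.837, 0.764, 0.0854 and 1.36 TPM with Uba1 siRNAs. The groups did not overlap, and the log2FC of -1.56 (SE 0.286) did not pass (limma adjusted p = 0.0909). Ptgs2, the gene of cyclooxygenase 2, had a log2FC of -1.03 (limma adjusted p = 0.184). In the other direction, Retnla, a gene of alternatively activated macrophages, was at 8.26, 14.4, 44.5 and 11.0 TPM with NT siRNAs and at 38.7, 19.1, 47.1 and 26.3 TPM with Uba1 siRNAs. It was higher in 4 of 4 pairs (log2FC 0.93, limma adjusted p = 0.318), as was the growth factor gene Igf1 (log2FC 0.44, limma adjusted p = 0.393).

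The 5 genes, none of them a member, whose level followed the markers' mean most closely over the 8 muscles were Ehd4 (Pearson r = 0.993), Unc93b1 (0.993), Trp63 (0.989), C1qc (0.989) and Laptm5 (0.989). Unc93b1 encodes a partner of Toll-like receptors in endosomes, Laptm5 a lysosomal protein of blood cells and C1qc a further chain of C1q. C1qc was at 13.8, 14.1, 28.2 and 8.67 TPM with NT siRNAs and at 23.7, 7.62, 30.2 and 8.69 TPM with Uba1 siRNAs, the pattern of C1qa at a lower level. In all, 4.72% of 11521 genes that are no marker had an r above 0.9 with the markers' mean, so such likeness over 8 muscles was not rare.

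Markers of other cells moved with the macrophage markers to different degrees. The sums of 7 dendritic cell markers (4.29 to 8.71 TPM with NT and 5.39 to 9.28 TPM with Uba1 siRNAs), of 7 markers of fibro-adipogenic progenitors (874 to 1480 and 918 to 1740 TPM), of 5 mast cell markers (7.89 to 12.1 and 7.05 to 13.7 TPM) and of 6 osteoclast markers (16.8 to 36.2 and 26.9 to 39.6 TPM) were highest in the same 3 muscles, NT 3, Uba1 1 and Uba1 3. The sum of 10 markers of T and NK cells was 1.51 to 3.08 and 1.02 to 4.55 TPM and shared 2 of these 3 muscles, with Trbc2 at 0 in all. The sums of 10 neutrophil markers (16.6 to 54.2 and 28.6 to 65.3 TPM, Camp at 0 in all), of 5 B cell markers (1.58 to 3.28 and 1.96 to 2.73 TPM) and of 6 endothelial markers (131 to 181 and 148 to 174 TPM) shared only 1. A sum can rest on 1 gene: Ctsk (14.5 to 33.1 TPM) made up most of the osteoclast sum, while Ocstamp, Dcstamp and Calcr were below the filter. Of the other lists, 4 satellite cell markers summed to 6.42 to 8.60 and 5.14 to 7.15 TPM, 5 markers of pericytes and smooth muscle to 203 to 319 and 224 to 251 TPM, and 4 Schwann cell markers to 44.3 to 64.3 and 30.8 to 75.4 TPM. Their part in the spread of the macrophage markers was not tested.

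Of the 3 adipocyte and 5 red blood cell markers in the filtered fit, 0 passed in limma (0.026% of all genes) and 0 had an unadjusted p under 0.05 (18.0%). The other adipocyte marker, Lep, was below the filter and had groups that did not overlap (0.454 to 0.717 and 0.0191 to 0.323 TPM), with an unadjusted p of 0.00262 and an adjusted p of 0.218 in the limma fit without a filter. The 4 adipocyte markers summed to 30.9 to 71.5 TPM with NT and 6.96 to 54.9 TPM with Uba1 siRNAs and their sum was lower in the left leg of 4 of 4 mice. The 5 red blood cell markers summed to 1920 to 7000 and 1840 to 3680 TPM, and their sum was higher in the left leg of 1 of 4 mice. The groups overlapped for both sums. In Uba1 2, which had the lowest sum of macrophage markers (121 TPM), the adipocyte sum was 6.96 TPM and the muscle fiber sum 81700 TPM, the lowest of all muscles in both. The part of these differences in the values of Uba1 2 was not tested.

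**Figure D5:**
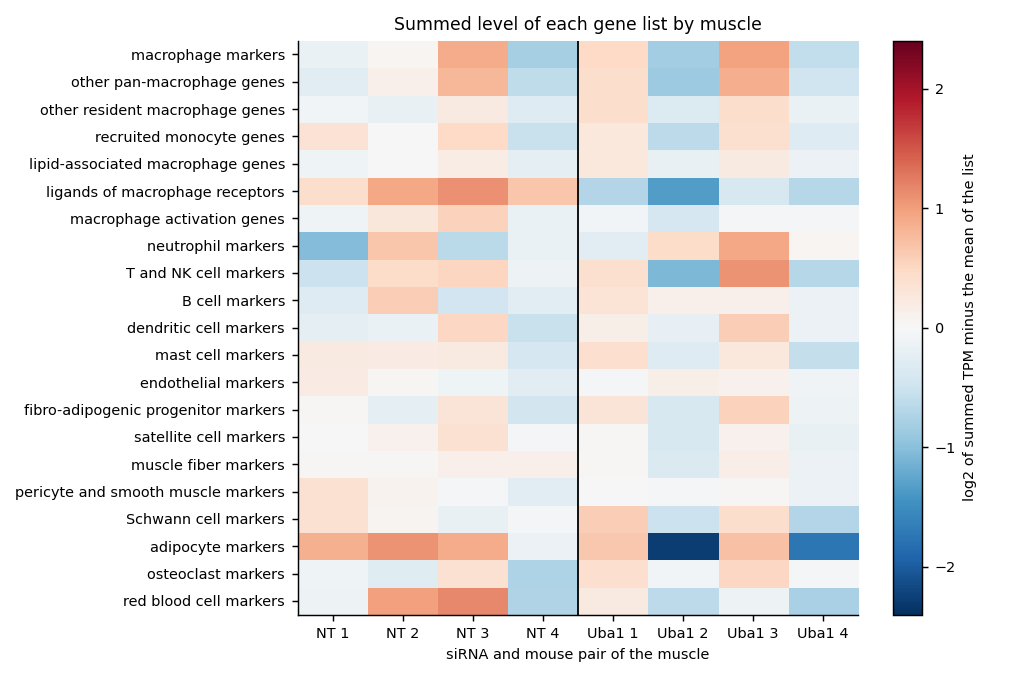
Log2 of the summed TPM of each gene list in each muscle, minus the mean of that list over the 8 muscles (color, from -2.4 to 2.4); the vertical line parts NT from Uba1 siRNAs. The rows of the markers and of the pan-macrophage, resident and lipid-associated genes are red in NT 3, Uba1 1 and Uba1 3, on both sides of the line, and the row of ligands is red with NT and blue with Uba1 siRNAs (61.4 to 98.3 against 18.1 to 35.1 TPM).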

How the data were processed

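The authors trimmed the reads of TruSeq libraries sequenced on a NovaSeq, ran CLC Genomics Workbench against GRCm39 and deposited 1 table of gene levels in TPM, the unit used here. Groups came from the labels' descriptions. Log2(TPM + 1) of 11530 genes (4 or more of 8 muscles reaching 1 TPM) was fitted with limma 3.58.1 (R 4.3.3, lmFit and eBayes with a trend, two-sided, 4 against 4 muscles, no block), and p-values were adjusted by Benjamini-Hochberg over these genes with a threshold of 0.05. The methods of the study name a rank test, which entered as an alternative. Same-numbered muscles come from 1 mouse, as titles and methods tell, so the mouse as a block was the other fit; deviations from the group means correlated at -0.000368, 0.201, 0.584 and 0.537 within mouse pairs 1 to 4. Of simulated log2 changes of 1 and 2 in 200 genes, 92% and 98.5% were called. These genes were drawn from all genes tested, whose SD within groups had a median of 0.14, against 0.57 for the markers. The shares therefore do not hold for the markers. For 99.8% of genes tested, TPM divided by the worth of 1 read was whole within 0.01 in every muscle, so reads (or read pairs) were recovered up to a factor common to all muscles, and limma's voom was run on them. This alternative was chosen after seeing the data, and it called 19 genes.

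The markers and lists were chosen with earlier results of these data known. Named genes were all 10 markers, Uba1, Lyz1, the ligand list, in each other macrophage list the genes that passed or else the 2 highest and 2 lowest log2FC, and the 5 genes most like the markers. The value of 1 gene that this rule names is not reported here. Further members of the lists named in the text for being at 0, and the comparison of each marker with the others, were chosen after values were seen. Gene positions are those of GENCODE on GRCm39. Promoters are RefSeq's on GRCm38.p6, and 7 of 10 markers matched.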

Additional observations from a re-analysis of the deposited data

Results flagged for a closer look

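In 13 of 154 groups of 4 muscles, the highest or lowest muscle stood apart from the other 3 by Dixon's 95% limit for groups of 4 (the gap to the nearest muscle over the range), where chance gives 1 in 20 groups, or 7.7. Among the markers these were Mrc1 (7.07 TPM in NT 3, against 2.89 to 3.33 in the other NT muscles), Cd163 (1.85 TPM in NT 3, against 0.934 to 1.06) and Ccr2 (3.18 TPM in NT 3, against 1.1 to 1.34). NT 3 also stood above its group for F13a1 (4.04 TPM), Ccl8 (7.72 TPM), Retnla (44.5 TPM) and Tlr4 (1.49 TPM). Uba1 3 stood above its group for Lyz1 (7.44 TPM) and Ccl12 (4.50 TPM). NT 3 and Uba1 3 are the legs of 1 mouse, and the markers varied together between muscles. The groups are thus not independent, so setting 13 against 7.7 is no test. The remaining values were Lyve1 at 2.69 TPM and Lpl at 69.7 TPM in NT 1, Csf1 at 5.34 TPM in NT 2, below its group, and Spp1 at 23.6 TPM in Uba1 2, against 7.69 to 9.14 TPM in the other Uba1 muscles.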

How the results depend on the processing

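No marker passed under any alternative run, the replicate block with the mouse included (lowest adjusted p 0.124, Ccr2), and the log2FC of Ccr2 ranged from 0.31 to 0.71. Over all genes, 3 passed. The count was 23 after median-ratio scaling, 28 after quantile normalization, 11 among genes averaging 5 TPM, 13 without mitochondrial genes, 57 with the replicate block, 76 with the block and median-ratio scaling, 19 with voom and 86 with voom and the block. In each of these 8 settings 2 ligands passed, against Ccl2 alone in the main fit. The rank test called 0 genes and 0 ligands, but it could not have called any. Its smallest exact p for 4 against 4 muscles is 0.0286, and the groups of only 11.6% of genes did not overlap. Such a p cannot pass adjustment over 11530 genes, so this run says nothing on the markers. At an unadjusted p under 0.05 limma called 2072 genes. Leaving out 1 muscle gave 2 to 39 genes (39 without Uba1 4, 6 without NT 1, 5 without NT 3 or without Uba1 2) and 1 to 2 ligands (2 without NT 1 or without Uba1 4). Of the activation genes, 1 passed with voom and the block, and 0 to 1 with 1 muscle left out (1 without Uba1 4).

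Markers with a log2FC above 0 were 6 of 9 tested, 3 of the 4 tested among genes averaging 5 TPM, and 2 to 9 of 9 with 1 muscle left out (2 without Uba1 3, 3 without NT 4), while their median moved from -0.23 to 0.30. Median-ratio scaling, the same with the block and quantile normalization turned Lyz2 to -0.12, -0.12 and -0.041 and C1qa to -0.06, -0.06 and -0.014, and voom without and with the block turned Lyz2 to -0.054 and -0.056. With 1 muscle left out, the log2FC ran from -0.32 to 0.19 for Adgre1, -0.58 to 0.017 for Cd68, -0.11 to 0.34 for Csf1r, -0.0091 to 0.41 for Mrc1, -0.33 to 0.30 for Lyz2, -0.23 to 0.38 for C1qa and -0.29 to 0.091 for Trem2, with each lowest value without Uba1 3 and each highest without NT 3 or Uba1 2. The block changed no call other than those of Uba1 and Ccl7 among the genes named here. The cause was not tested. Depth limits Trem2 and Cx3cr1, with as few as 17 and 14 reads.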
